A study of Homo sapiens with 6 samples.

Results

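The genes described here encode the 7 insulin-like growth factor (IGF) binding proteins, IGFBP1 to IGFBP7, and the 3 receptors IGF1R, IGF2R and INSR. They were taken by gene symbol from the deposited expression table, which listed all 10 of them among 21293 genes. RNA-seq was carried out on H2087-LCC, a human lung adenocarcinoma (LUAD) line described as a dormant metastatic derivative of H2087. LCC stands for latency competent cancer, a population selected in mice from 1 tumor-derived line, so the 3 groups are treatments of the same cell population in low-serum medium. The cells received SB505124 (SB), which blocks the kinase of the TGFβ type I receptor, during 3 days, or TGFβ during 3 or 7 days, with 2 libraries per treatment. SB served as the baseline with the cells' own TGFβ signal blocked, and untreated cells were not analysed here. Time in culture and treatment cannot be told apart between TGFβ for 7 days and SB for 3 days. The study describes such pairs of libraries as technical replicates, so the standard errors and p-values here measure the spread between libraries and may not cover that between cultures.

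IGF1 and IGF2 are secreted growth factors that signal through IGF1R, a receptor tyrosine kinase feeding the PI3K and AKT pathway and the MAPK pathway. IGFBP1 to IGFBP6 hold the ligands with high affinity in the fluid around cells, which keeps IGFs away from the receptor or releases them when proteases cut the binding protein. IGFBP7 binds IGFs weakly. INSR, the insulin receptor, also binds IGF2 in one of its splice forms, and IGF2R carries IGF2 and mannose 6-phosphate tagged enzymes to lysosomes without a kinase domain of its own. In lung cancer the pathway is known as a survival and drug tolerance route, and several IGFBP genes are known to respond to TGFβ.

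Values are normalized counts: reads per gene that the authors scaled by library size and rounded to whole numbers. They summed to between 34306283 and 36340734 per library, and from the gaps between the low values 1 read was estimated to be worth 0.896 to 1.10 normalized counts. The SB libraries differed from each other by more than 1.5-fold at 401 of the 11389 genes that averaged 100 or more, compared with 134 genes in the 3-day pair and 53 in the 7-day pair. The keratins KRT7, KRT8, KRT18 and KRT19, which mark epithelium, lay at 3785 or above in every library. Other genes of the same epithelial list were lower with TGFβ. CDH1, which encodes E-cadherin, was 371 and 635 in SB, 28 and 24 at 3 days, and 10 and 9 at 7 days, and EPCAM was 10180 and 9106, 6610 and 5994, and 2988 and 3277. SFTPB, a surfactant protein gene, was 1104 and 8273 in SB and 19 to 24 with TGFβ. The lung marker NKX2-1 was 2784 and 2908 in SB and between 712 and 857 with TGFβ, and NAPSA, another lung adenocarcinoma marker, was at 5 to 9 normalized counts in the TGFβ libraries. SMAD7, a target of TGFβ, was 112 and 79 in SB and at least 747 in the TGFβ libraries. Of the fibroblast markers, LUM was listed at 0 in each library, DCN did not exceed 1 and PDGFRA was 8 to 16. Of the endothelial markers, PECAM1 was 36 to 67, CDH5 0 to 20 and VWF 3 to 13. The leukocyte markers CD3E and PTPRC did not exceed 4. CD68, also on the leukocyte list, was 4368 to 5113.

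Groups were compared on the log2 scale (normalized count plus 1) with limma, using all 6 libraries and the 14395 genes that averaged 10 or more, and adjusted p-values (Benjamini-Hochberg) under 0.05 were called. All 10 genes passed this filter, but IGFBP5 did so only through its 7-day libraries, so its call there was partly set by the filter. At the 3-day point 6 of the 10 genes were called against SB, where 29.0% of all genes tested were called. Of these 6, 3 were higher and 3 lower, compared with 14.9% and 14.0% of all genes. By day 7 each of the 10 was called against SB, where 54.5% of all genes were. There 6 were higher and 4 lower, compared with 27.7% and 26.9% of all genes. Between 7 days and 3 days, 7 of the 10 were called, against 33.2% of all genes, with 5 higher at 7 days (17.0% of all genes) and 2 lower (16.2%). The libraries of the groups compared did not overlap for 7 of the 10 genes at 3 days, for 10 at 7 days and for 9 between the TGFβ time points, compared with 63.2%, 77.5% and 69.1% of all genes. The median absolute log2 fold change of the 10 genes was 0.47 at 3 days and 1.43 at 7 days relative to SB, and 0.84 between the TGFβ time points. Over all genes tested it was 0.24, 0.41 and 0.27. The comparisons with SB share the SB libraries and are not independent of each other.

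**Figure D1:**
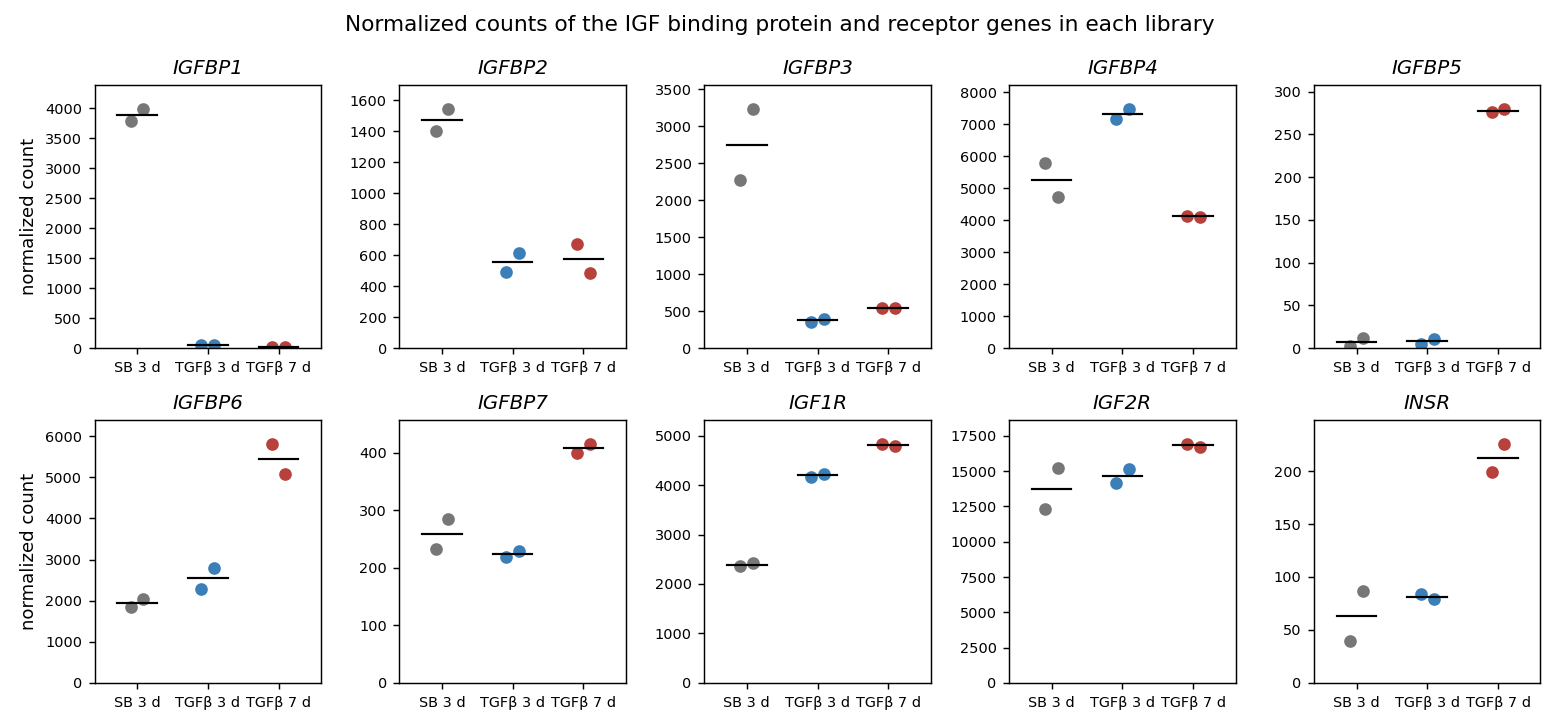
Normalized counts (y axes, linear and starting at 0, with a different scale for each gene) of the 10 genes in the SB, 3-day and 7-day TGFβ libraries (x axes). Each point is 1 library and each line the mean of 2. IGFBP1, IGFBP2 and IGFBP3 were highest in SB, IGFBP4 peaked at 3 days, and IGFBP5, IGFBP6, IGFBP7, IGF1R, IGF2R and INSR were highest at 7 days.

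The binding proteins fell into 3 patterns. IGFBP1, IGFBP2 and IGFBP3 were below SB at both TGFβ time points, IGFBP4 exceeded SB early and dropped under it later, and IGFBP5, IGFBP6 and IGFBP7 were highest at 7 days. IGFBP1 and IGFBP3 lie on chromosome 7 of GRCh37, pointing toward each other with 18584 bases between them, and IGFBP2 and IGFBP5 are arranged in the same way on chromosome 2 with 7668 bases between them. IGFBP1 and IGFBP3 both fell, whereas IGFBP2 fell and IGFBP5 rose.

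IGFBP1, a secreted binding protein that insulin represses in liver, had the largest change of the 10 genes. It spans chromosome 7 from 45927959 to 45933259 on the plus strand of GRCh37. The SB libraries held 3797 and 3993 normalized counts of IGFBP1, the 3-day TGFβ libraries 59 and 59, and the 7-day libraries 11 and 17. The 3 groups did not overlap, and both TGFβ groups were far below SB. After 3 days its mean was 66.0-fold lower than SB, a log2 fold change of -6.02 (SE 0.20, adjusted p = 2.53e-09). By day 7 it was 278-fold lower than SB, a log2 fold change of -8.05 (SE 0.20, adjusted p = 8.40e-11). Between 3 days and 7 days it fell by a further 2.03 on the log2 scale (SE 0.20, adjusted p = 4.71e-05).

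IGFBP3, the main IGF carrier in blood and a gene known as a TGFβ target in many cell types, was lower with TGFβ in these cells. It spans chromosome 7 from 45951844 to 45961473 on the minus strand. IGFBP3 had 2271 and 3236 normalized counts in SB, 358 and 392 after 3 days, and 540 and 538 after 7 days. Both SB libraries lay above each TGFβ library, and the 7-day pair lay above the 3-day pair. The SB libraries differed by 12.7 times the SD that read counting allows, the 7-day libraries by 0.062 times. Against SB, IGFBP3 changed by -2.85 on the log2 scale after 3 days (SE 0.15, adjusted p = 7.64e-08) and by -2.33 after 7 days (adjusted p = 1.63e-07). From 3 days to 7 days IGFBP3 rose by 0.52 (SE 0.15, adjusted p = 0.0201). This last call was lost when low genes were kept in the fit (adjusted p = 0.184), without the trend in limma (0.0896), and without the first 3-day (0.0922), the first 7-day (0.0852) or the second 7-day library (0.0892).

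IGFBP2, which also binds integrins through an RGD motif, spans chromosome 2 from 217497551 to 217529159 on the plus strand. In SB its libraries held 1402 and 1544 normalized counts, after 3 days 492 and 615, and after 7 days 670 and 484. The TGFβ libraries of the time points overlapped, and each lay below SB. Against SB, IGFBP2 changed by -1.42 on the log2 scale after 3 days (SE 0.16, adjusted p = 4.13e-05) and by -1.37 after 7 days (adjusted p = 2.41e-05). The difference between 7 days and 3 days was 0.050 on the log2 scale, with a 95% interval from -0.30 to 0.40 (adjusted p = 0.839). Leaving out the first 3-day library (-0.11) or the first 7-day one (-0.18) turned it negative.

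IGFBP4, an inhibitor of IGF action that the protease PAPP-A cuts, was, alone among the 10 genes, called above SB at one time point and below SB at the other. It spans chromosome 17 from 38599702 to 38613977 on the plus strand. Normalized counts of IGFBP4 were 5781 and 4743 in SB, 7178 and 7485 after 3 days, and 4139 and 4111 after 7 days. The 3 groups did not overlap. On the log2 scale IGFBP4 differed from SB by 0.49 after 3 days (SE 0.10, adjusted p = 0.00305) and by -0.34 after 7 days (SE 0.10, adjusted p = 0.0110). The fall of 0.83 on the log2 scale from 3 days to 7 days (SE 0.10, adjusted p = 0.000139) was called under each alternative. Relative to SB, the rise at 3 days was lost without the filter (adjusted p = 0.0836), and the fall at 7 days without the filter (0.0963), without the trend (0.0623) and without the first SB (0.0774), first 7-day (0.0547) or second 7-day library (0.0646).

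IGFBP5, a binding protein that attaches to the extracellular matrix, was near the limit of detection until 7 days. It spans chromosome 2 from 217536828 to 217560272 on the minus strand. Only 3 and 12 normalized counts were listed in SB and 5 and 11 after 3 days, compared with 276 and 280 after 7 days. The 7-day libraries stood apart from the other 4, which overlapped. By day 7 its log2 fold change was 5.27 relative to SB (SE 0.50, adjusted p = 4.73e-06) and 5.04 relative to 3 days (SE 0.50, adjusted p = 4.54e-05). Relative to SB it ranged from 4.42 without the first SB library to 6.12 without the second. At 3 days the log2 difference from SB was 0.23, with a 95% interval from -0.87 to 1.34 (adjusted p = 0.767), and it turned negative without the first SB library (-0.62) and without the second 3-day library (-0.27). On the annotation used here, 487 bases of its exons (7.53%) overlap the antisense gene DIRC3-AS1, and the library kit does not mark strand.

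IGFBP6, a binding protein with a preference for IGF2, rose in steps. It spans chromosome 12 from 53491220 to 53496129 on the plus strand. IGFBP6 stood at 1839 and 2045 normalized counts in SB, 2292 and 2802 after 3 days, and 5819 and 5079 after 7 days. The 3 groups did not overlap. After 7 days IGFBP6 was higher by 1.49 on the log2 scale relative to SB (SE 0.11, adjusted p = 7.60e-07) and 1.10 relative to 3 days (SE 0.11, adjusted p = 5.77e-05). At 3 days it was 0.39 above SB (SE 0.11, adjusted p = 0.0251), a call that was lost in 5 alternatives: without the filter (adjusted p = 0.193), with equal library totals (0.0643), without the trend (0.116), and without the first SB (0.125) or the second 3-day library (0.209).

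IGFBP7, the member with weak IGF binding, spans chromosome 4 from 57896939 to 57976551 on the minus strand. IGFBP7 had normalized counts of 232 and 285 in SB, 218 and 230 after 3 days, and 399 and 416 after 7 days. The 7-day libraries lay above the other 4, and the 3-day libraries lay just below SB. After 7 days IGFBP7 was higher by 0.66 on the log2 scale relative to SB (SE 0.15, adjusted p = 0.00280) and 0.86 relative to 3 days (SE 0.15, adjusted p = 0.00151). At 3 days the difference from SB was -0.20, with a 95% interval from -0.53 to 0.13 (adjusted p = 0.353). In its exons, 94 bases overlap the antisense gene IGFBP7-AS1 and 260 bases (13.5%) overlap POLR2B on the other strand, and POLR2B was at 7546 to 8446 in the 6 libraries. The part of such reads in the IGFBP7 values was not tested.

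To show what stands ahead of genes that moved in opposite directions, the 250 bases before the RefSeq start of IGFBP3 (lower with TGFβ), IGFBP5 (higher at 7 days) and IGFBP6 (higher at 7 days) are given 5′ to 3′ on the strand of the gene, from build GRCh38.p14. They are chr7:45921273-45921522 (minus strand), chr2:216695550-216695799 (minus strand) and chr12:53097417-53097666 (plus strand). Capitals mark every match, on either strand, to 5 short motifs: CAGAC (SMAD), GTCTAGAC (the SMAD palindrome), TGANTCA (AP-1), CAGGTG (an E-box that ZEB and SNAIL factors bind) and GGAATG (TEAD).
IGFBP3: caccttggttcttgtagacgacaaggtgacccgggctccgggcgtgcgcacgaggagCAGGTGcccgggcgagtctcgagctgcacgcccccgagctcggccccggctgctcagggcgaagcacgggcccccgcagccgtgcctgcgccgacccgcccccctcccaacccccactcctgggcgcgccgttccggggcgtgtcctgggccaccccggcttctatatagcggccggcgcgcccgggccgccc
IGFBP5: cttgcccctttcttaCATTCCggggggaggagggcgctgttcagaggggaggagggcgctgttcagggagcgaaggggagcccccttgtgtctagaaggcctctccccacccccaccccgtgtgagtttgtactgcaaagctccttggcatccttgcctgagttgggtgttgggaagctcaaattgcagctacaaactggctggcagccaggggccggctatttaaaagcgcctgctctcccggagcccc
IGFBP6: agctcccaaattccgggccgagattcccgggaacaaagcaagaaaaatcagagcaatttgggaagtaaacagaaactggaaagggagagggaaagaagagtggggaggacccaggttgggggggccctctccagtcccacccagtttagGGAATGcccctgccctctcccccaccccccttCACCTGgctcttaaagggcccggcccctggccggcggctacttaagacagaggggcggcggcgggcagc
In these windows the E-box was found at 193 bases before the start of IGFBP3 and 69 before that of IGFBP6, and the TEAD letters at 235 before IGFBP5 and 101 before IGFBP6. The SMAD and AP-1 letters were in none of these 3 windows, whereas CAGAC was found in windows of IGFBP2 and INSR. Among 35116 windows of the same length, 38.0% held CAGAC, 17.5% held CAGGTG, 11.9% held GGAATG, 6.57% held TGANTCA and 0.182% held GTCTAGAC. The RefSeq promoter table matched 8 of the 10 genes, and IGFBP1 and IGFBP7 were not matched.

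**Figure D2:**
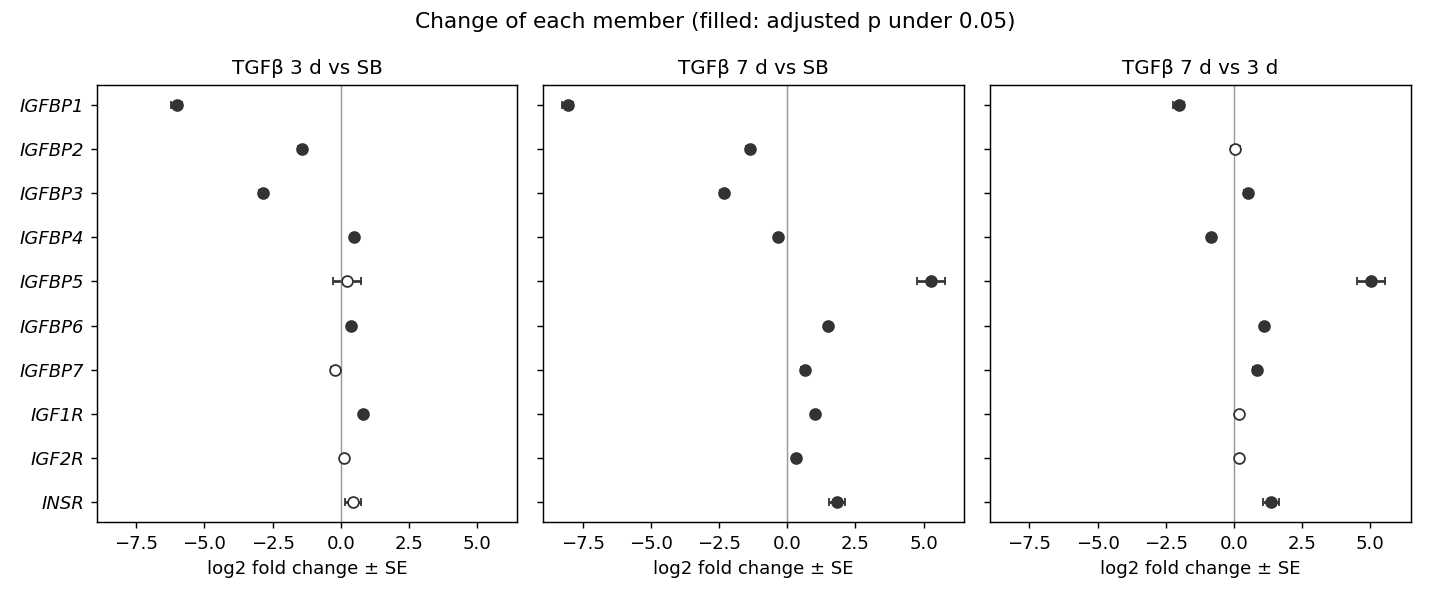
Log2 fold change of each gene (x axes) in the 3 comparisons (panels), with bars for the standard error from limma. Filled points had an adjusted p under 0.05. IGFBP1 lay at -6.02 and -8.05 relative to SB, IGFBP5 moved only at 7 days (5.27), and IGFBP2, IGF1R and IGF2R were not called between 7 days and 3 days.

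Levels of different genes were compared only after division by the length of the canonical transcript, as normalized counts per kilobase. In SB the highest means were those of IGFBP1 at 2573 ± 91.5 (SD, n = 2), IGFBP4 at 2386 ± 333 and IGFBP6 at 2051 ± 154 normalized counts per kilobase. With these lengths, neighbors in that order did not differ beyond their spread. The levels depend on the length used: the canonical transcript of IGFBP6 has 947 bases and its merged exons 1346, whereas both are 2205 for IGFBP4. The order of near neighbors may therefore differ with other lengths. IGFBP3 (1054 ± 261), IGFBP2 (1042 ± 71.0) and IGF2R (978 ± 146) came next and overlapped with each other. At 3 days IGFBP4 (3325 ± 98.4) and IGFBP6 (2690 ± 381) led, followed by IGF2R (1044 ± 49.0). At 7 days IGFBP6 led at 5754 ± 553, with IGFBP4 at 1871 ± 8.98 and IGF2R at 1198 ± 11.3 normalized counts per kilobase. IGFBP1, among the highest in SB, had the lowest mean of the 10 genes after 7 days, at 9.25 ± 2.80 normalized counts per kilobase.

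The 7 binding protein genes summed to 9095 and 9480 normalized counts per kilobase in SB, 6353 and 7140 at 3 days, and 9033 and 8123 at 7 days. With the canonical lengths, the sum was lower at 3 days than in either other group, and the 7-day libraries lay below both SB libraries by a smaller margin. This order depends on the division by length, which raises IGFBP6 most, with 947 bases in its canonical transcript and 1346 in its merged exons. The sum was not recomputed with other lengths, so the order of the groups may differ with them. Of this sum, IGFBP1 made up 27.7% ± 0.175 (SD, n = 2) with SB, 0.580% ± 0.0478 at the 3-day point and 0.109% ± 0.0409 at the 7-day point. The shares of IGFBP6 in the same order were 22.1% ± 1.01, 39.8% ± 2.36 and 67.0% ± 1.41. The share of IGFBP4 was 25.8% ± 4.34 with SB, 49.4% ± 2.62 at the 3-day point and 21.9% ± 1.54 at the 7-day point. IGFBP3 dropped from 11.3% to 2.13% and 2.41%, and IGFBP5 did not exceed 0.552% in any library despite its large fold change. The sum and the shares both depend on the transcript lengths used.

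**Figure D3:**
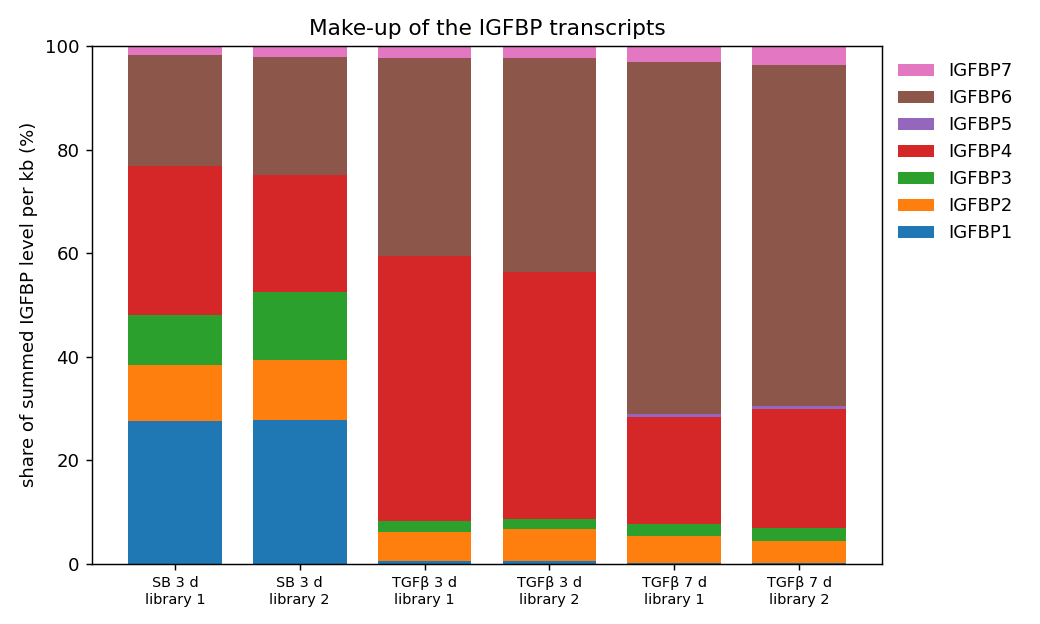
Share (y axis, percent) of each IGFBP gene in the summed normalized counts per kilobase of the 7 genes, for the 6 libraries (x axis). Each bar is 1 library and has no error. The IGFBP1 segment was 27.6% and 27.8% in SB and under 1% with TGFβ, and the IGFBP6 segment reached 68.0% and 66.0% at 7 days.

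The receptors did not fall in any comparison. IGF1R, the signaling receptor for IGF1 and IGF2, spans chromosome 15 from 99191768 to 99507759 on the plus strand of GRCh37. IGF1R had 2362 and 2419 normalized counts in SB, 4171 and 4232 after 3 days, and 4839 and 4798 after 7 days. The 3 groups did not overlap, and the libraries of each pair differed by less than the counting SD. Against SB, IGF1R rose by 0.81 on the log2 scale after 3 days (SE 0.08, adjusted p = 1.48e-05) and by 1.01 after 7 days (SE 0.08, adjusted p = 1.06e-06). The difference of 0.20 between 7 days and 3 days was not called (95% interval from 0.020 to 0.37, adjusted p = 0.0811). It was called when low genes were kept in the fit (adjusted p = 0.0329) and in a fit of the 4 TGFβ libraries alone (0.0486).

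INSR, the insulin receptor, spans chromosome 19 from 7112266 to 7294425 on the minus strand. Per kilobase it was the least abundant receptor, with normalized counts of 40 and 87 in SB, 84 and 79 at 3 days, and 199 and 226 at 7 days. The 7-day libraries lay above the other 4, and the second SB library lay above the 3-day pair. After 7 days INSR was higher by 1.83 on the log2 scale relative to SB (SE 0.30, adjusted p = 0.000290) and 1.37 relative to 3 days (SE 0.30, adjusted p = 0.00496). The latter was lost without the filter (adjusted p = 0.134). At 3 days the difference from SB was 0.46, with a 95% interval from -0.19 to 1.11 (adjusted p = 0.278). That value depended on which SB library was used and was -0.094 without the first SB library and 1.01 without the second (adjusted p = 0.00753). Gene counts do not separate the splice forms of INSR.

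IGF2R, which clears IGF2 and also binds latent TGFβ through mannose 6-phosphate, spans chromosome 6 from 160390114 to 160534539 on the plus strand. IGF2R reached 12297 and 15195 normalized counts in SB, 14186 and 15161 after 3 days, and 16951 and 16726 after 7 days. The 7-day libraries lay above the other 4, and the SB pair enclosed the 3-day pair. The SB libraries differed by 17.1 times the counting SD. After 7 days IGF2R was higher by 0.30 on the log2 scale relative to SB (SE 0.10, adjusted p = 0.0227). That call was lost without the filter (adjusted p = 0.154), with equal library totals (0.0646), without the trend (0.102), and without the first SB (0.159), first 7-day (0.107) or second 7-day library (0.0920). At 3 days the difference from SB was 0.10 (95% interval from -0.12 to 0.32, adjusted p = 0.483). It was -0.051 without the first SB library and 0.25 without the second (adjusted p = 0.0480). Between 7 days and 3 days it was 0.20 (95% interval from -0.018 to 0.42, adjusted p = 0.144), and it was called with only the 4 TGFβ libraries (adjusted p = 0.0398) or without the first or the second SB library (0.0400 and 0.0403).

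The ligands themselves were barely detected. IGF1 was at 2 and 5 normalized counts in SB, 1 and 2 at 3 days, and 0 and 2 at 7 days. IGF2 was at 1 and 0 in SB, 2 and 5 at 3 days, and 4 and 1 at 7 days. Both were below the filter and were not tested, and IGFALS, which encodes a carrier of IGFs in blood, did not exceed 1. INS was not analysed here. On the annotation used here, the antisense gene HELLPAR covers 82.5% of the merged exons of IGF1. INS-IGF2 covers 20.4% of those of IGF2, and another protein-coding gene on the same strand covers 37.9%. Reads in those stretches may not have been assigned to either gene, so the low counts may understate both ligands.

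Other genes of the pathway were followed in lists by role. Of 64 listed genes, 62 were in the table and 47 were tested. Relative to SB, 18 of the 47 were called at 3 days, with 15 higher and 3 lower (38.3%, against 29.0% of all genes), and 32 at 7 days, with 24 higher and 8 lower (68.1%, against 54.5%). Between 7 days and 3 days 22 were called, with 15 higher and 7 lower (46.8%, against 33.2% of all genes). The median log2 fold change of the 47 genes was 0.15 at 3 days, 0.26 at 7 days and 0.13 between them, compared with -0.022, -0.00081 and 0.019 over all genes.

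Among the IGFBP proteases and their inhibitors, 4 of 7 genes were tested. HTRA1, a secreted serine protease reported to cut IGFBP5, was 121 and 249 in SB, 727 and 769 at 3 days, and 5449 and 5864 at 7 days. HTRA1 rose by 2.10 after 3 days and by 5.02 after 7 days on the log2 scale (adjusted p = 4.36e-05 and 1.44e-08), though the 3-day call was lost without the filter (adjusted p = 0.0572). PAPPA2, a metalloproteinase that cuts IGFBP3 and IGFBP5, was 126 and 122 in SB, 412 and 415 at 3 days, and 1975 and 1828 at 7 days. PAPPA2 rose by 1.73 and 3.93 on the same scale (adjusted p = 8.27e-07 and 3.82e-10). HTRA1 and PAPPA2 were also higher at 7 days than at 3 days of TGFβ, by 2.92 and 2.20 (adjusted p = 1.39e-05 and 9.59e-07), and neither gene's groups overlapped. STC2, an inhibitor of PAPP-A, changed by 0.056 at 3 days (adjusted p = 0.655) and fell by 0.32 at 7 days (adjusted p = 0.00685). PAPPA itself did not exceed 16.

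Genes whose proteins hold an IGFBP domain outside the family were tested for 6 of 13, HTRA1 among them. CYR61 and CTGF, matricellular proteins, were called above SB at 3 days (log2 fold changes of 0.88 and 0.84, adjusted p = 0.00745 and 0.00980) and below it at 7 days (-2.60 and -1.49, adjusted p = 9.70e-07 and 9.29e-05). Their 3-day calls were lost without the filter (adjusted p = 0.211 and 0.220) and without the trend (0.0904 and 0.0969). That of CTGF was also lost without the second SB library (0.0650) or the first 3-day library (0.0563). Their SB libraries were apart, at 11080 and 5910 for CYR61 and at 3032 and 1724 for CTGF. NOV rose by 0.54 at 7 days (adjusted p = 0.00434), and KAZALD1 and CRIM1 fell by 0.72 and 0.39 (adjusted p = 0.000854 and 0.00259).

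Among the adaptors and feedback genes that sit at the receptors, 5 of 10 tested genes rose and none fell at 3 days, and 7 rose and 1 fell at 7 days relative to SB. Over all genes, 14.9% were called higher and 14.0% lower at 3 days, and 27.7% and 26.9% at 7 days. The gene that fell was IRS2, a docking protein for IGF1R and INSR. It was 6708 and 4237 in SB, 4095 and 3763 at 3 days, and 1639 and 1677 at 7 days. After 7 days IRS2 was lower than SB, at -1.68 on the log2 scale (SE 0.16, adjusted p = 4.93e-06). At 3 days it was -0.44 (adjusted p = 0.0609), and it was called with equal library totals (-0.50, adjusted p = 0.0433), with the replicate number as a block (adjusted p = 0.0107) and without the second SB library (-0.77, adjusted p = 0.000461). Without the first SB library it was -0.11 (adjusted p = 0.442). IRS1, the related docking protein, rose by 0.49 at 3 days and 0.63 at 7 days (adjusted p = 0.00132 and 9.55e-05). The 2 docking genes differed in direction at 7 days, and neither group of IRS1 or IRS2 libraries overlapped with SB there. GRB14, which binds and restrains the insulin receptor, rose by 1.47 at 3 days (adjusted p = 4.85e-05) and by 0.90 at 7 days (adjusted p = 0.000813). The related GRB10 was called against SB at 7 days (0.53, adjusted p = 0.000247).

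Of the 18 genes of the PI3K and AKT list, all tested, 3 rose and 2 fell at 3 days, and 9 rose and 2 fell at 7 days. The share called was 27.8% and 61.1%, close to the 29.0% and 54.5% of all genes. PHLPP1, a phosphatase of AKT, was 384 and 422 in SB, 174 and 161 at 3 days, and 208 and 190 at 7 days. PHLPP1 changed by -1.26 after 3 days and by -1.01 after 7 days on the log2 scale (adjusted p = 6.09e-05 and 0.000143). AKT1, one of the AKT kinases, was lower at 7 days (log2 fold change -0.50, adjusted p = 0.00282) and AKT2 was not called (-0.17, adjusted p = 0.321). Of the 3 FOXO factors tested, which AKT keeps out of the nucleus, FOXO1 was 113 and 178 in SB, 192 and 184 at 3 days, and 497 and 570 at 7 days. After 7 days FOXO1 was higher by 1.90 on the log2 scale (SE 0.20, adjusted p = 1.07e-05), and that of FOXO4 was 1.50 (adjusted p = 7.70e-05). FOXO3 was not called at 7 days (-0.080, adjusted p = 0.476). FOXO1 and INSR were both highest at 7 days.

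**Figure D4:**
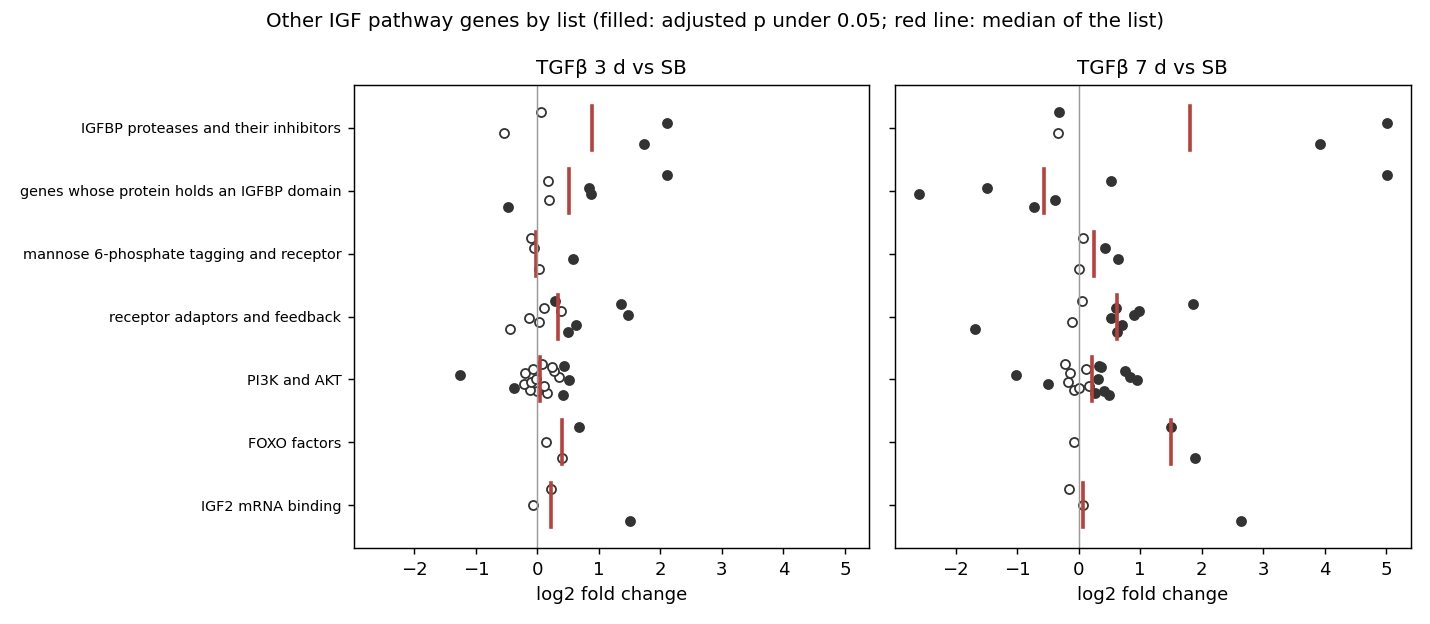
Log2 fold change relative to SB (x axes) of the tested genes of 7 lists of the IGF pathway (y axis) after 3 days (left) and 7 days (right) of TGFβ. Each point is 1 gene, filled where the adjusted p was under 0.05, and the red lines are list medians. HTRA1, which is on 2 lists, and PAPPA2 lay farthest to the right at 7 days (5.02 and 3.93), and CYR61 farthest to the left (-2.60).

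Of the 3 IGF2 mRNA-binding protein genes, IGF2BP1 had 96 and 111 normalized counts in SB, 296 and 293 after 3 days, and 646 and 650 after 7 days. It rose by 1.50 and 2.64 on the log2 scale relative to SB (adjusted p = 1.10e-05 and 4.18e-08). IGF2BP2 and IGF2BP3 were not called relative to SB at either time point. Of the 4 genes for mannose 6-phosphate tagging and its smaller receptor, GNPTAB rose at both time points (0.59 and 0.64, adjusted p = 0.000551 and 0.000126), GNPTG was called at 7 days (0.43, adjusted p = 0.0376), and M6PR was not called (0.012 at 7 days, adjusted p = 0.917). Whether IGF2R and M6PR differed in their change was not tested.

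The genes most like IGFBP1 and INSR, the binding protein and the receptor gene with the widest span of group means, were found by the Euclidean distance between centered log2 values over the 6 libraries, among 11380 other genes that averaged 100 or more. For IGFBP1 they were KRT75 (distance 1.70), SLCO2A1 (1.76) and SCGB3A2 (1.88). KRT75, a keratin, was 7309 and 7175 in SB, 147 and 153 at 3 days, and 17 and 10 at 7 days. SCGB3A2, an airway secretory protein, was listed at 0 in both 7-day libraries. For INSR they were FER1L4 (distance 0.34), FOXO1 (0.34) and ALPK3 (0.35), and each shared the low first SB library of INSR, with 70 and 142 in SB for FER1L4 and 213 and 384 for ALPK3.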

How the data were processed

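Gene expression was measured by RNA-seq in 6 libraries of H2087-LCC, 2 in each of 3 groups taken from the sample titles. Libraries were made from polyA RNA, and reads were mapped to hg19 with STAR and counted with HTSeq 0.6.1p1. The authors normalized the counts by library size, and the deposited values, recorded here as a score, are these normalized counts rounded to whole numbers. Read counts could not be recovered gene by gene, so the negative binomial test of the study was not used. Counting SDs, from the estimated worth of 1 read, cover counting error only.

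Values were transformed as log2(value + 1), and genes averaging 10 or more over the libraries (14395 of 21293) entered a model in limma 3.58.1 under R 4.3.3. Its only term was the group, leaving 3 residual degrees of freedom, and variances were moderated by empirical Bayes with a trend. P-values were adjusted by Benjamini-Hochberg over all genes tested. An exact permutation test of 2 against 2 libraries cannot go below p = 0.333. On simulated data for 7 days against SB, 97 of 100 genes changed 2-fold and 100 of 100 changed 4-fold were called. Among the 14397 genes tested there, 16 unchanged genes were called. The simulation gave all genes and groups the same dispersion and changed only 200 genes. In the real libraries the SB pair was more variable than the other pairs and 54.5% of genes were called. The simulated recovery may therefore not hold for these libraries. Genes were placed on GRCh37 with GENCODE v44lift37, whose canonical transcripts gave the lengths. The release the authors counted on is not given in the sources used here. The genes and lists were chosen with earlier results of these data known. Other genes were named by rule: at most 3 called genes per list, averaging 100 or more, with the largest absolute log2 fold changes of 1 or more. Other list genes named in the text were chosen after their values were seen. Alternatives were another pseudocount, filter, scaling or variance trend, a block for the replicate number, leaving out libraries or using only those compared, and other transcript lengths. Figures were drawn with matplotlib 3.10.9. Some genes of the lists are counted but not reported by name here.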

Additional observations from a re-analysis of the deposited data

Results flagged for a closer look

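For 7 of the 10 genes the effect of TGFβ relative to SB differed between 7 days and 3 days, by the limma test of 7 days against 3 days, which called 33.2% of all genes. The difference (log2, 7 days minus 3 days) was -2.03 for IGFBP1, 0.52 for IGFBP3, -0.83 for IGFBP4, 5.04 for IGFBP5, 1.10 for IGFBP6, 0.86 for IGFBP7 and 1.37 for INSR. For IGFBP4 the effects had opposite signs, and for IGFBP3 the 7-day effect was the smaller of the 2. The differences of IGFBP3 and INSR, and both effects of IGFBP4 relative to SB, lost their call in at least 1 alternative, as given above for each gene. Without a 7-day SB library in the comparison, a change over time in culture cannot be told apart from a change with longer TGFβ exposure.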

How the results depend on the processing

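Of 480 recomputed log2 fold changes of the 10 genes, 444 kept their direction and their side of the threshold, 23 lost a call, 7 gained one and 6 changed sign, each of the last from a difference that was not called. The sign changes were those of IGFBP5 at 3 days (-0.62 without the first SB and -0.27 without the second 3-day library), IGF2R at 3 days (-0.051) and INSR at 3 days (-0.094) without the first SB library, and IGFBP2 between 7 and 3 days (-0.11 without the first 3-day and -0.18 without the first 7-day library). The number of the 10 genes called ranged from 4 to 8 at 3 days, from 8 to 10 at 7 days and from 6 to 9 between 7 and 3 days. With 1 library left out at a time, the log2 difference ranged from -0.62 to 1.08 for IGFBP5, from -0.051 to 0.25 for IGF2R and from -0.094 to 1.01 for INSR at 3 days against SB, and from -0.18 to 0.28 for IGFBP2 between 7 and 3 days. Over all genes, 4170 were called at 3 days and 4775 between 7 and 3 days. These counts became 2244 and 1713 without the filter on low values, 3122 between 7 and 3 days without the variance trend, and 2609 to 3877 and 2314 to 5554 with 1 library left out. With equal library totals 41.6% of the genes called at 3 days were higher, against 51.5% as reported. Whether the replicate numbers pair the libraries is not given by the labels. Deviations of same-numbered libraries correlated across genes at 0.14 (SB and 3 days), -0.10 (SB and 7 days) and -0.29 (3 and 7 days). With 2 libraries per group these values cannot settle the pairing. With the number as a block 3943, 7546 and 4485 genes were called, among them 6, 10 and 7 of the 10 genes. With merged exon lengths, an alternative chosen after seeing the data, or without division by length, 33 of 42 recomputed IGFBP shares moved by more than their spread. With 3 to 12 normalized counts in SB and at 3 days, depth limits what IGFBP5 can show there.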
